A study of Mus musculus with 15 samples.

Results

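The 8 transcription factors described here specify or maintain the endocrine cell types of the pituitary gland, and were taken by symbol from a table of 55523 gene rows: Pitx1, Lhx3, Lhx4, Hesx1, Pou1f1, Gata2, Isl1 and Foxl2. Each symbol had 1 row, so all 8 of 8 were found. The question was whether this program stayed in place in the mouse pituitary when Nr5a1, the nuclear receptor of the gonadotropes, was lost. Nr5a1 was lost by CRISPR/Cas9 deletion of its pituitary enhancer (PE), which lies in the sixth intron of the gene, from fertilized eggs. The libraries were made from whole pituitary glands with a low-input kit, and compared mice with the enhancer deleted on both chromosomes (PE−/−, 4 males and 3 females) with mice with 1 deleted copy (PE+/−, 4 males and 4 females). The PE+/− controls therefore carried the deletion as well, and no wild-type library was among the 15. The deletion is germline and not restricted by a Cre driver. The age and strain of these mice are not given in the sources used here, nor is it stated whether each library came from 1 animal. The gonads of PE−/− mice are also altered, so that effects of the pituitary deletion and of changed gonadal hormones cannot be told apart in these libraries. Where nothing states separate animals, a p-value measures the spread between these samples.

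The anterior pituitary arises from a common primordium, Rathke's pouch, in which Hesx1, Pitx1, Lhx3 and Lhx4 act early. Later factors divide the lineages: Pou1f1 (also known as Pit1) is needed for somatotropes, lactotropes and thyrotropes, while Gata2, Isl1 and Foxl2 are known from both gonadotropes and thyrotropes. In gonadotropes NR5A1 acts with PITX1 and other factors on Lhb, and FOXL2 acts with SMAD proteins on Fshb. None of the 8 is a gonadotrope-specific gene as NR5A1 is within the pituitary, so a whole-gland level adds up several cell types.

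The promoter window of each gene, from 250 bases before to 50 bases after its start site, was searched for 4 short motifs on both strands, with the sequences taken from RefSeq (GRCm38.p6). Windows were found for 7 of the 8 factors (10 windows, since Gata2, Lhx3 and Pou1f1 have more than 1) and for the gonadotrope genes Lhb, Fshb, Gnrhr and Cga (4 windows), and none was at hand for Pitx1. AAGGTCA, a binding motif of NR5A1, was in the window of Lhb and in none of the other 13, against 4.72% of all 32851 windows. TAATCC, a motif of PITX1, was in the window of Isl1 and in none of the others, against 7.06% of all windows. AGATAA, which binds GATA factors, was in the window of Isl1 alone, within the 50 bases after the start site, against 11.2% of all windows. GTAAACA, a forkhead motif, was in none of these 14 windows and in 3.65% of all windows. The stretches with the first pair of motifs are shown because Lhb is a known target of NR5A1 and Isl1 is the factor with the smallest adjusted p among the well-read ones. They run from 250 to 101 bases before the RefSeq start site, 5′ to 3′ on the strand of the gene, with the motif in capitals. The Lhb stretch lies at chr7:45420696-45420845 on the plus strand and holds AAGGTCA on the opposite strand, beginning 129 bases before the start site. Its last bases overlap the Lhb gene of GENCODE M21, which starts further upstream. The Isl1 stretch lies at chr13:116309789-116309938 on the minus strand and holds TAATCC, beginning 177 bases before the start site.
Lhb: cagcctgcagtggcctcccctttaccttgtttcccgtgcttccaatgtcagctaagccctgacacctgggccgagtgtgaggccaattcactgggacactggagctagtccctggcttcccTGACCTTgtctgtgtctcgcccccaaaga
Isl1: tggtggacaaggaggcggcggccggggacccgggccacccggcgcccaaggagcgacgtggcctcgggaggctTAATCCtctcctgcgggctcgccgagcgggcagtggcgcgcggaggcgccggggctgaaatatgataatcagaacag
A match of letters is a description and not a bound site, and a window without a match says only that these letters are not in it.

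The targeted gene was low in each PE−/− library. Nr5a1 was at 80.2, 34.8, 45.8 and 40.2 CPM (counts relative to the library total, scaled by TMM factors) in PE+/− males, and at 33.7, 39.9, 36.0 and 45.4 in PE+/− females. It was at 0.303, 0.345, 0 and 0.740 CPM in PE−/− males and at 0.618, 0.897 and 0.657 in PE−/− females. Gnrhr, the receptor for gonadotropin-releasing hormone, averaged 148 ± 37.4 CPM (SD, n = 4) in PE+/− and 5.48 ± 2.67 (n = 4) in PE−/− males, and 95.8 ± 13.2 (n = 4) and 6.87 ± 2.44 (n = 3) in females. Lhb, the β subunit of luteinizing hormone, averaged 425 ± 120 and 13.04 ± 6.65 CPM in males and 205 ± 30.8 and 16.2 ± 6.21 in females. These genes fell in both sexes, Gnrhr with adjusted p = 0.00991 in males and 0.00633 in females and Lhb with 0.0132 and 0.00698. In males these calls were close to the threshold: without PE−/− replicate 2 the adjusted p was 0.0532 for Gnrhr, 0.0647 for Lhb and 0.0696 for Nr5a1, without PE−/− replicate 1 it was 0.0777 for Lhb and 0.0720 for Nr5a1, and for Lhb it was 0.0598 without PE−/− replicate 3 and 0.0552 without PE+/− replicate 4. Library totals ran from 12982794 to 30238443 counts. About 4 counts stood for 1 sequenced fragment, so 12 counts (3 fragments) were taken as the floor below which a level is not read. In a whole gland, fewer cells of a type and less RNA per cell cannot be told apart. The summed level of 7 posterior lobe markers was 3.67 to 179 CPM in PE+/− and 3.84 to 122 in PE−/− males. In females it was 6.41 to 19 CPM in PE+/− and 2.76 to 5.41 in PE−/− mice. Pomc, a corticotrope marker, ran from 15430 to 58090 CPM in PE+/− and from 4644 to 115000 in PE−/− males. The part of this uneven content in the values below was not tested.

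None of the 8 factors passed the test between PE−/− and PE+/− pituitaries. In males 0 of 7 tested factors were called, against 0.132% of all 17392 genes tested, and in females 0 of 6, against 1.05% of 18085. With both sexes in 1 fit adjusted for sex, 0 of 7 were called, against 1.17% of 19286. At an unadjusted p under 0.05 there were 1, 2 and 3 factors in these comparisons, where 6.14%, 16.1% and 12.7% of all genes lay. DESeq2, run as another tool, called 0, 0 and 2 of them, against 1.19%, 7.96% and 4% of all genes with an adjusted p. The median log2 fold change of the tested factors was −0.22 in males and 0.43 in females, beside 0.0027 and 0.0018 over all genes tested. Hesx1 was too low to be tested in any comparison, and Lhx4 in females. The plot of the factors by library shows that 6 of them were well above the floor in every PE−/− library.

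**Figure D1:**
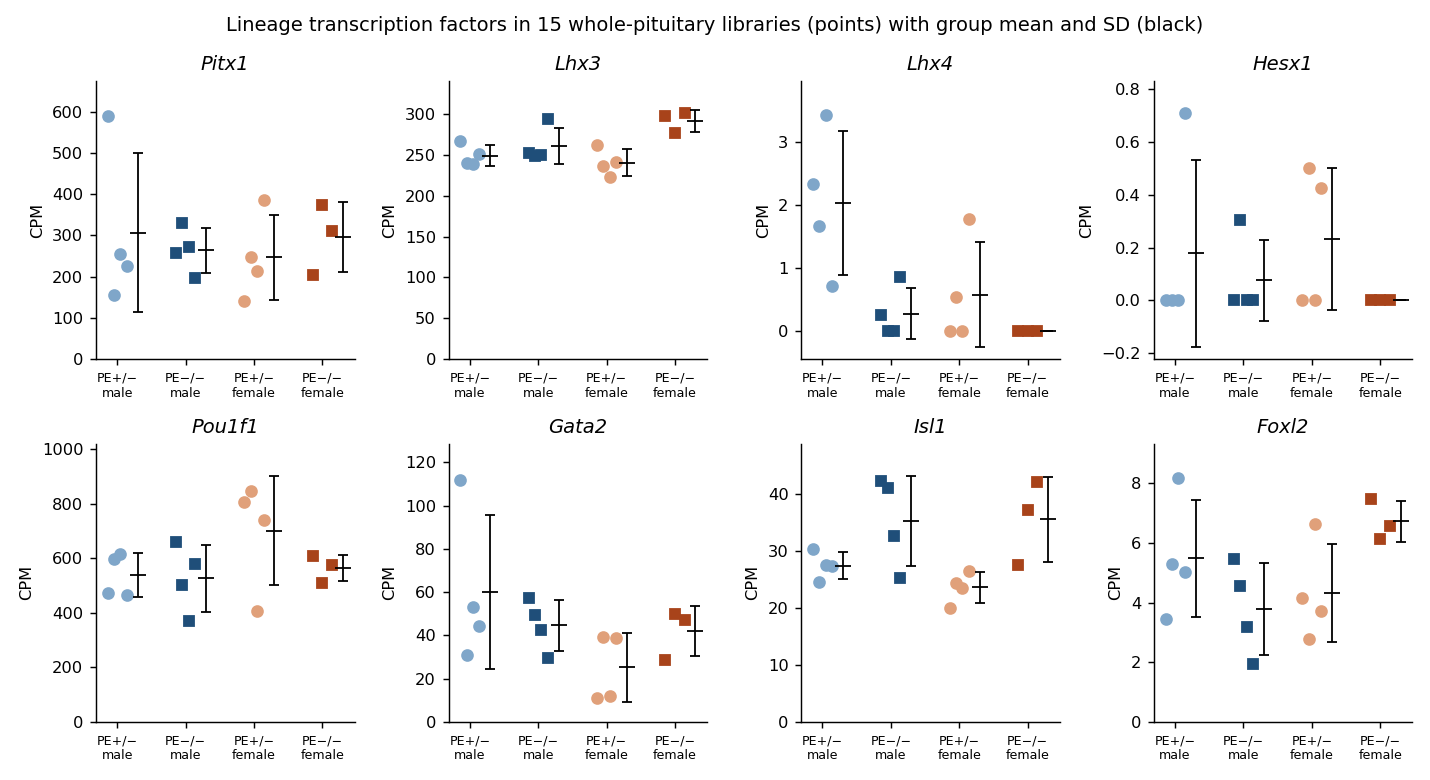
Level of each of the 8 factors (y axis, CPM, linear) in the 15 libraries by group (x axis), with 1 point per library, circles for PE+/− and squares for PE−/−; the black mark and bar give the group mean and SD. Lhx3 sits between 223 and 302 CPM in all 15 libraries, while Lhx4 is at 0 in 5 of 7 PE−/− libraries and in 2 of 8 PE+/− libraries.

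Pitx1, a homeodomain factor present in all anterior pituitary lineages and in their primordium (chr13:55825051-55836192, mm10, minus strand), was at 589, 156, 255.9 and 227 CPM in PE+/− males and at 257, 329, 273 and 196 in PE−/− males. In females it was at 140, 247, 213 and 386 CPM in PE+/− and at 204, 374 and 311 in PE−/− mice. The groups overlapped in both sexes. The log2 fold change was −0.22 ± 0.39 (SE, 95% interval −1.11 to 0.67, adjusted p = 0.988) in males and 0.26 ± 0.35 (−0.56 to 1.08, adjusted p = 0.798) in females. PE+/− male replicate 1 held the highest level of all 15 libraries, and without it the male estimate was 0.31 in place of −0.22. The noncoding gene Gm28760 overlaps Pitx1 on the same strand and has a row of its own, and how shared reads were divided is not stated. An antisense gene overlaps Pitx1, another Lhx3 and a noncoding gene on the opposite strand Pou1f1, and their reads cannot be told apart without strand.

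Lhx3, a LIM-homeodomain factor needed for Rathke's pouch to grow and for most of its lineages (chr2:26200212-26208289, minus strand), was the most even of the 8. It was at 267, 240, 239 and 251 CPM in PE+/− males and at 252, 248, 249 and 294 in PE−/− males, which overlapped. In females it was at 263, 236, 223 and 241 CPM in PE+/− mice and at 297, 277 and 302 in PE−/− mice, with each PE−/− library above each PE+/− library. The difference was 1.046-fold (95% interval 0.890 to 1.23) in males and 1.21-fold (1.003 to 1.45) in females, with adjusted p = 0.987 and 0.302. The male interval thus did not go below 0.890 of the PE+/− level. Its coefficient of variation within groups was 4.61% to 8.48%, compared with 20.7% to 62.9% for Pitx1.

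Lhx4, the paralogue of Lhx3 that acts beside it early in pouch development (chr1:155698031-155751684, minus strand), was rare in both genotypes. Its estimated counts in PE+/− males were 33, 36, 56 and 11, and in PE−/− males 5, 0, 0 and 15. In females they were 0, 13, 0 and 29 in PE+/− mice and 0, 0 and 0 in PE−/− mice. Over all libraries there were 178 counts in 8 PE+/− libraries and 20 in 7 PE−/− libraries, at totals of 140663402 and 153121497 counts. At or under the floor of 12 counts were 3 of 8 PE+/− and 6 of 7 PE−/− libraries. The fitted log2 fold change was −2.92 ± 1.14 in males (95% interval −5.53 to −0.31, adjusted p = 0.727) and −3.68 ± 1.21 over both sexes (−6.25 to −1.10, adjusted p = 0.185). DESeq2 gave −4.19 over both sexes with adjusted p = 0.0440. These fits rest on a handful of fragments and depend on the prior count, so they set no bound on the change. In CPM the male groups overlapped by a single pair of libraries, with 0.711 to 3.42 in PE+/− and up to 0.854 in PE−/− males.

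Hesx1, a homeobox repressor of the pouch that normally declines before birth (chr14:26994416-27002329, plus strand), was not readable at this depth. It had 30 counts in all over 8 PE+/− and 8 over 7 PE−/− libraries, and each of the 15 libraries was at or under the floor. It was at 0 in 11 libraries, and no fold is given.

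Pou1f1, the POU-homeodomain factor of somatotropes, lactotropes and thyrotropes (chr16:65520511-65535005, plus strand), stands for those lineages only among the ones outside the gonadotropes. It was at 471, 599, 616 and 464 CPM in PE+/− males and at 658, 503, 369 and 577 in PE−/− males. In females it was at 807, 845, 407 and 741 CPM in PE+/− and at 607, 511 and 574 in PE−/− mice. The PE−/− values lay within the range of the PE+/− libraries in females, and the groups overlapped in males. The fold change was 0.979 (95% interval 0.724 to 1.33) in males and 0.800 (0.530 to 1.21) in females, with adjusted p = 0.996 and 0.615. Its target Prl, the lactotrope hormone, fell in females from 30120 to 5084 CPM on average (log2 fold change −2.58 ± 0.21, adjusted p = 0.00698). In males Prl was at 19880 and 17660 CPM on average and was not called (adjusted p = 0.990).

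Gata2, a zinc-finger factor of gonadotropes and thyrotropes (chr6:88193891-88207032, plus strand), was at 112, 31.0, 53.2 and 44.2 CPM in PE+/− males and at 57.1, 49.6, 42.4 and 29.5 in PE−/− males. In PE+/− females it was at 10.8, 39.4, 11.8 and 38.6 CPM, so that the 4 libraries formed a low and a high pair. The PE−/− females were at 28.5, 49.96 and 47.2 CPM. The log2 fold change was −0.43 ± 0.39 (95% interval −1.33 to 0.47, adjusted p = 0.972) in males and 0.73 ± 0.52 (−0.50 to 1.96, adjusted p = 0.574) in females. Without PE+/− male replicate 1 the male estimate was 0.061. The difference between the sexes in this response, 1.16 ± 0.69 on the log2 scale, was not called (adjusted p = 0.629 for the interaction). None of the 7 tested factors was called in that interaction with edgeR or DESeq2, against 0.161% of 19286 genes with edgeR and 2.08% with DESeq2, and 1 had an unadjusted p under 0.05, where 10.1% of genes lay. Gata2 is also expressed in endothelial cells. The summed level of 9 endothelial markers was 394 CPM in PE+/− male replicate 1 and 107 to 209 CPM in the other 14 libraries. Of these markers Plvap alone reached 284.9 CPM in PE+/− males, and none of the others exceeded 29.21 CPM in that group, so the high sum rests on Plvap. By group that sum ran from 110 to 394 CPM in PE+/− males, 107 to 130 in PE−/− males, 143 to 209 in PE+/− females and 122 to 151 in PE−/− females. Its part in the Gata2 values was not tested.

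Isl1, a LIM-homeodomain factor found in gonadotropes and thyrotropes (chr13:116298281-116309689, minus strand), had the smallest adjusted p of the 6 well-read factors, with estimates above 0 in both sexes. It was at 30.3, 24.5, 27.6 and 27.4 CPM in PE+/− males and at 42.2, 41.1, 32.7 and 25.3 in PE−/− males. In females it was at 20.01, 24.4, 23.6 and 26.5 CPM in PE+/− and at 27.5, 37.2 and 42.1 in PE−/− mice. In females each PE−/− library lay above each PE+/− library, and in males PE−/− replicate 4 lay within the PE+/− range while the other 3 lay above it. The log2 fold change was 0.36 ± 0.18 (95% interval −0.05 to 0.78, adjusted p = 0.881) in males and 0.58 ± 0.18 (0.15 to 1.02, adjusted p = 0.178) in females. Over both sexes it was 0.47 ± 0.13 (1.38-fold, 95% interval 1.14 to 1.68) with adjusted p = 0.108, which did not pass. The same comparison passed with DESeq2 (0.46, adjusted p = 0.0318) and with PE−/− male replicate 4 left out (0.54, adjusted p = 0.0350). That library was the lowest of all 15 in Lhb, Gnrhr and Foxl2, and its gonadotrope marker sum was 1385 CPM, compared with 6556 to 6830 in the other PE−/− males. Of that sum 1346 CPM was Cga, which is shared with thyrotropes. The thyrotrope marker sum of that library was 170 CPM, also the lowest, with 232 to 618 CPM in the other 14 libraries. Of 5 melanotrope markers, 0 passed in males and 1 in females, against 0.132% and 1.05% of all genes. All 5 had positive estimates in both sexes, where 50.4% and 50.2% of all genes lay. Positive in males and females were also 4 and 5 of 5 corticotrope, 6 and 6 of 7 stem or folliculostellate and 0 and 3 of 3 thyrotrope markers. For somatotrope markers it was 0 and 5 of 5, for lactotrope 1 and 2 of 5 and for gonadotrope 0 and 1 of 9. For endothelial markers it was 1 and 1 of 9, for erythroid 0 and 0 of 5, and for immune 3 of 6 and 1 of 7. DESeq2 called 1 melanotrope marker in each sex (Opcml), against 1.19% and 7.96% of genes. At an unadjusted p under 0.05 with edgeR there were 1 and 2 melanotrope markers, where 6.14% and 16.1% of all genes lay. Their sum overlapped between the genotypes and ran from 629 to 816 CPM in PE−/− and 372 to 686 in PE+/− females, and from 638 to 1415 in PE−/− and 263 to 844 in PE+/− males. Their part in the Isl1 values was not tested.

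Foxl2, the forkhead factor that acts on Fshb and Cga in gonadotropes (chr9:98955288-98958543, plus strand), was low in every library. It was at 3.45, 5.29, 8.17 and 5.04 CPM in PE+/− males and at 5.46, 4.56, 3.19 and 1.94 in PE−/− males. In females it was at 4.14, 2.76, 6.64 and 3.72 CPM in PE+/− and at 7.47, 6.13 and 6.57 in PE−/− mice. The groups overlapped in both sexes, by a single PE+/− library in females. The log2 fold change was −0.54 ± 0.37 (95% interval −1.38 to 0.31, adjusted p = 0.970) in males and 0.63 ± 0.31 (−0.09 to 1.35, adjusted p = 0.377) in females. The difference between these responses was 1.17 ± 0.51 and was not called (adjusted p = 0.449 for the interaction). With 34 to 198 counts per library, 1 fragment in this gene carries more weight than in the other 5 well-read factors. The antisense gene Foxl2os overlaps the first bases of Foxl2, and reads there cannot be told apart without strand.

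**Figure D2:**
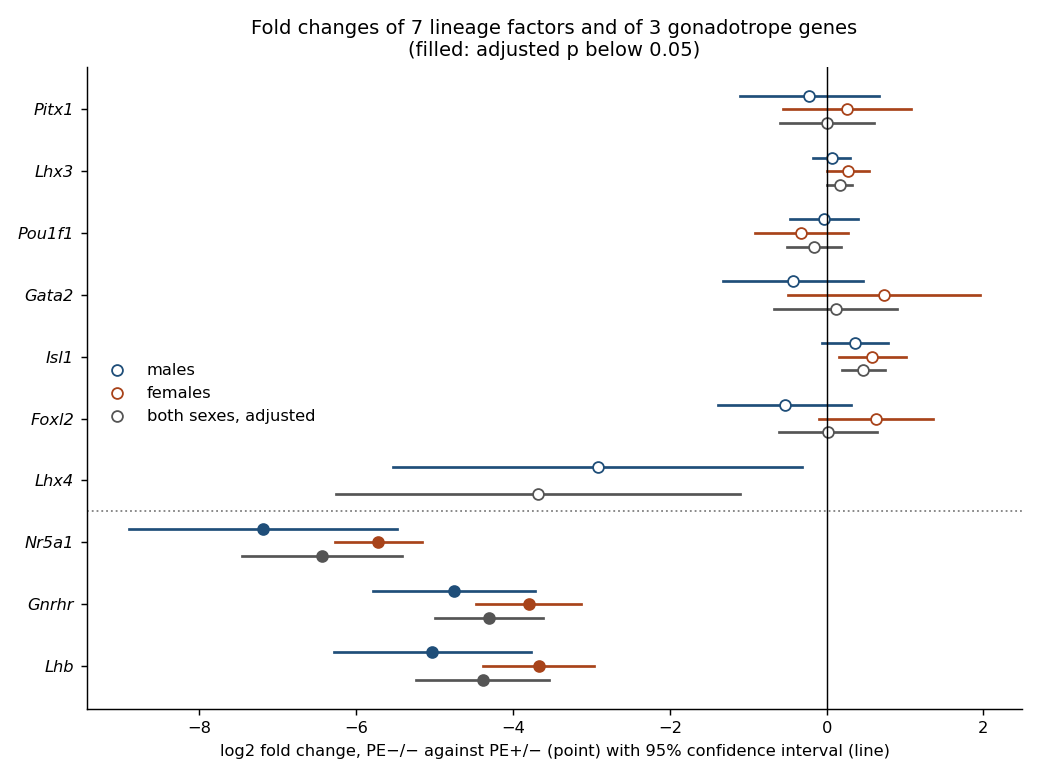
Log2 fold change of PE−/− against PE+/− (x axis) with its 95% confidence interval for 7 factors and for Nr5a1, Gnrhr and Lhb (y axis), in males, females and both sexes adjusted for sex; filled points passed the threshold of 0.05 on the adjusted p. The intervals of 6 factors lie between −1.38 and 1.96, and those of Nr5a1, Gnrhr and Lhb lie below −2.96. Those of Lhx4, which rest on few counts, run from −5.53 to −0.31 in males and from −6.25 to −1.10 over both sexes.

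Per length, with CPM divided by the kilobases of annotated exon, the factors fell into 3 tiers. Pou1f1 was the highest with 150 ± 35.5 CPM per kb (SD over 15 libraries), then Pitx1 with 104 ± 42.3 and Lhx3 with 84.9 ± 7.91, and neighbours in this order did not differ beyond their spread. Gata2 with 7.97 ± 4.35 and Isl1 with 7.62 ± 1.83 formed the next tier and likewise overlapped. Foxl2 followed with 1.53 ± 0.554, and its highest library, at 2.51, exceeded the lowest Gata2 library, at 1.997. Lhx4 with 0.134 ± 0.185 and Hesx1 with 0.104 ± 0.189 CPM per kb lay at or near the floor. Nr5a1, on the same scale, averaged 11.8 CPM per kb in PE+/− males and 9.14 in PE+/− females, which is near the tier of Gata2 and Isl1. The exon lengths are those of the annotation and not of the assembled transcripts, so these levels are approximate.

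**Figure D3:**
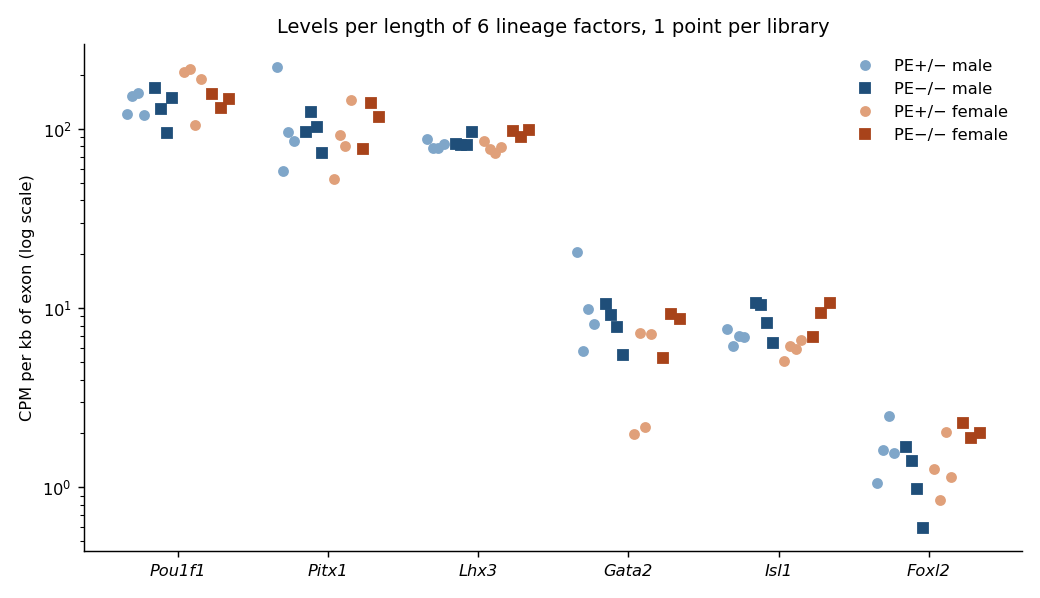
Level per length of 6 factors (y axis, CPM per kb of annotated exon, log scale) in 15 libraries, with 1 point per library, by group. Pou1f1, Pitx1 and Lhx3 lie between 52.9 and 222 CPM per kb, Gata2 and Isl1 between 1.997 and 20.7, and Foxl2 between 0.594 and 2.51.

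Between the sexes none of the factors was called either. In PE+/− mice 0 of 7 tested factors passed, against 0.67% of 17163 genes, and in PE−/− mice 0 of 6, against 0.0494% of 18217. DESeq2 also called 0 in both, against 5.38% and 0.227% of genes. At an unadjusted p under 0.05 there were 0 and 1 of them, where 13.5% and 3.37% of all genes lay. Gata2 averaged 25.2 ± 16.03 CPM in PE+/− females and 60.1 ± 35.7 in PE+/− males, a log2 difference of −1.26 ± 0.56 (95% interval −2.54 to 0.019, adjusted p = 0.379). In PE−/− mice the averages were 41.9 ± 11.7 and 44.7 ± 11.7 CPM, a log2 difference of −0.091 ± 0.28. Foxl2 averaged 6.72 ± 0.69 CPM in PE−/− females and 3.79 ± 1.55 in PE−/− males, without overlap (log2 difference 0.83 ± 0.34, adjusted p = 0.997). These comparisons share their groups with those of genotype and add no separate samples.

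Pitx1 and Gata2 varied together from library to library, as the plot of both factors shows. Pearson's r of log2(CPM + 0.5) was 0.77 and Spearman's rho 0.73 over the 15 libraries, and r was 0.87 after the mean of each group was subtracted. Without the 2 libraries farthest from the median of Pitx1, PE+/− male replicate 1 and PE+/− female replicate 1, r was 0.50 over 13 libraries. Isl1 had r = 0.56 to Pitx1 and 0.64 to Gata2 (0.67 and 0.68 within groups), and without the 2 libraries farthest from the median of Pitx1 or of Gata2 these were 0.58 and 0.42. For Lhx3 and Pou1f1, r to Pitx1 and Gata2 lay between −0.27 and 0.16. The points share tissue composition and library scaling, and these values are descriptions of 15 libraries. PE+/− male replicate 1 was the highest of the 15 in Pitx1, Gata2, Nr5a1, Lhb and Cga alike.

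**Figure D4:**
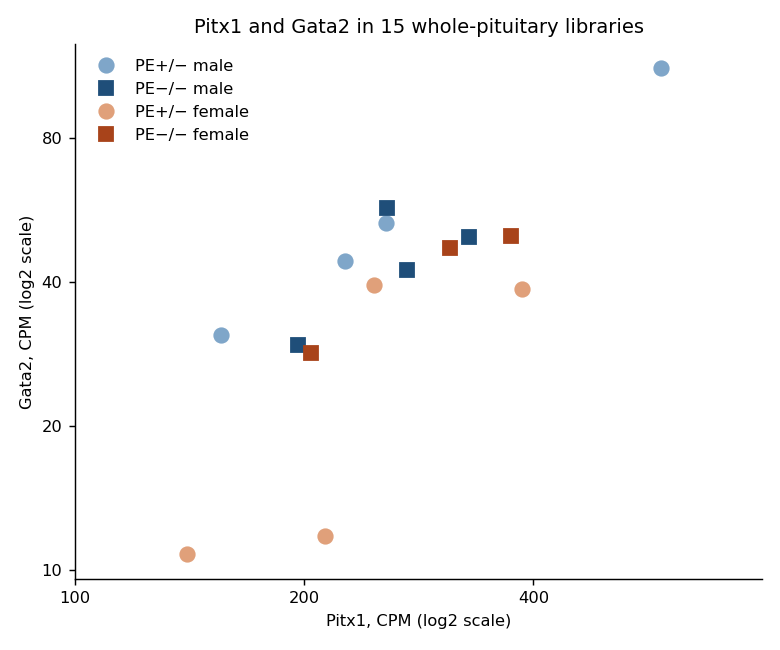
Gata2 (y axis) against Pitx1 (x axis), both in CPM on log2 axes, with 1 point for each of 15 libraries by group. A PE+/− male library lies apart at 589 and 112 CPM, and a pair of PE+/− female libraries lies lowest in Gata2 at 10.8 and 11.8 CPM.

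Among 11887 genes with at least 100 counts on average, the genes whose levels followed each factor most closely across the 15 libraries were as follows. For Pitx1 they were E330009J07Rik (r = 0.94) and Aplp1 (0.94), and within groups Prr16 (0.97) and Limd2 (0.96). For Gata2 they were Mkrn2 (0.92) and Lypd1 (0.92), and within groups Syngr1 (0.93) and Lypd1 again (0.90). For Isl1 they were Sema6d (0.93) and Eepd1 (0.91), and within groups Cenpq (0.90) and Sema6d (0.88). For Lhx3 they were Clcn6 (0.85) and Sorbs3 (0.82), and within groups Zc3h18 (0.91) and Edem3 (0.87), and for Pou1f1 Gpm6a (0.88) and Crot (0.88), and within groups BC052040 (0.93) and Cacnb3 (0.92). Only Lypd1 and Sema6d were named by both measures. These r values are the highest of 11887 over 15 libraries, and how high such maxima reach by chance was not tested. Foxl2, Lhx4 and Hesx1 had too few counts to be matched.

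Among the partners of these factors, Lmo4 and Zfpm2 rose over both sexes. Of 24 partners and cofactors, which include the LIM-domain binding proteins that bridge LHX3 and ISL1 to DNA complexes, the GATA cofactors of the FOG family and the TLE corepressors, 0 of 23 tested passed in males and 0 of 23 in females, against 0.132% and 1.05% of all genes. Over both sexes 2 of 24 passed, against 1.17%. At an unadjusted p under 0.05 there were 3, 3 and 5 of them, where 6.14%, 16.1% and 12.7% of all genes lay. DESeq2 called 1 in males (Lmo4) and 2 in females (Lmo4 and Zfpm2), against 1.19% and 7.96%. The median log2 fold change was −0.049 in males and 0.24 in females. The summed level of the list was 1056 to 1208 CPM in PE−/− and 845.5 to 967 in PE+/− females, and 899.7 to 1160 and 1020 to 1113 in males, which overlapped. In females the difference rested partly on Ssbp2, with means of 117 and 58.2 CPM and a PE+/− library at 1.80 CPM. Lmo4, with means of 113 and 62.5 CPM, also had a part in it. Estimates lay above 0 for 10 of 23 partners in males and 17 of 23 in females, where 50.4% and 50.2% of all genes lay. Lmo4, a LIM-only protein that competes for the LIM-domain binding proteins, was at 70.5, 68.9, 82.5 and 90.7 CPM in PE+/− males and at 112, 120, 143 and 110 in PE−/− males. In females Lmo4 was at 59.1, 57.7, 59.6 and 73.5 CPM in PE+/− and at 87.8, 133 and 119 in PE−/− mice, so that each PE−/− library lay above each PE+/− library of its sex. It rose 1.67-fold over both sexes (log2 0.74 ± 0.11, adjusted p = 0.00661). Zfpm2, a FOG cofactor of GATA proteins, was at 5.64, 2.37, 5.55 and 4.27 CPM in PE+/− males and at 10.2, 8.39, 8.53 and 5.63 in PE−/− males. In females Zfpm2 was at 2.58, 3.23, 4.03 and 2.99 CPM in PE+/− and at 6.05, 7.36 and 8.01 in PE−/− mice, and it rose 2.01-fold over both sexes (log2 1.01 ± 0.19, adjusted p = 0.0208). The male Zfpm2 groups overlapped by 1 library. The Zfpm2 call was lost without PE+/− female replicate 4 (adjusted p = 0.0526), PE−/− female replicate 2 (0.0671) or 3 (0.0708), or PE−/− male replicate 1 (0.0565), with log2 fold changes of 0.95 to 0.98, while Lmo4 passed without each library in turn. Ldb1, a LIM-domain binding protein, had a log2 fold change of −0.30 ± 0.12 over both sexes and was not called (adjusted p = 0.294). Its paralogue Ldb2 averaged 17.47 CPM in PE+/− and 20.58 in PE−/− males, and 24.15 and 16.42 CPM in females, and was not called either. Next in this list by the smallest adjusted p was the corepressor Tle1 in females, with a log2 fold change of 0.999 ± 0.31 (adjusted p = 0.173).

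Of 28 other pituitary transcription factors, 0 of 27 tested passed in males, 1 of 26 in females and 0 of 27 over both sexes, against 0.132%, 1.05% and 1.17% of all genes. At an unadjusted p under 0.05 there were 2, 8 and 10 of them, where 6.14%, 16.1% and 12.7% of all genes lay. DESeq2 called 0, 4 (Neurod1, Rxrg, Nr3c1 and Sox9) and 1 (Neurod1), against 1.19%, 7.96% and 4%. The median log2 fold change was 0.19 in males and 0.53 in females, beside 0.0027 and 0.0018 over all genes, with 17 of 27 and 20 of 26 estimates above 0, where 50.4% and 50.2% of all genes lay. Neurod1, a basic helix-loop-helix factor of corticotropes, rose in females, from 17.7, 13.9, 14.7 and 17.7 CPM in PE+/− to 31.8, 43.3 and 34.4 in PE−/− mice (2.28-fold, log2 1.19 ± 0.17, adjusted p = 0.0328). Neurod1 stayed past the threshold without PE+/− female replicate 1 (adjusted p = 0.0438) and lost the call without any other of the 7 female libraries, with adjusted p from 0.0656 to 0.129 and log2 fold changes from 1.04 to 1.28. The call was also lost with library totals as the scaling (adjusted p = 0.0520) and in 1 fit on all 15 libraries (0.0760). Over both sexes it passed without PE+/− male replicate 1 (adjusted p = 0.0269) or PE−/− male replicate 4 (0.0350). In males Neurod1 was at 30.4, 12.6, 17.4 and 11.4 CPM in PE+/− and at 33.8, 28.4, 27.2 and 12.4 in PE−/− mice, which overlapped. Next in the list in females were Rxrg with a log2 fold change of 0.70 ± 0.16 (adjusted p = 0.0964), Nr3c1, the glucocorticoid receptor, with 0.86 ± 0.21 (0.0999), and Sox9 with 0.95 ± 0.27 (0.148), none of which passed with edgeR.

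Of 10 genes known as targets of these factors, 2 of 9 tested passed in males (Lhb and Gnrhr), 3 of 9 in females (Lhb, Gnrhr and Prl) and 3 of 9 over both sexes (Lhb, Gnrhr and Fshb), against 0.132%, 1.05% and 1.17% of all genes, all of them lower in PE−/− mice. At an unadjusted p under 0.05 there were 4, 5 and 4 of them, where 6.14%, 16.1% and 12.7% of all genes lay. DESeq2 called 3, 4 and 3, against 1.19%, 7.96% and 4%. The study had already reported by qRT-PCR that Lhb, Fshb and Gnrhr fell in PE−/− mice of both sexes. Their calls were thus known beforehand, and these counts say nothing about the factors. Fshb, a target of FOXL2, averaged 2705 ± 568 CPM in PE+/− and 72.5 ± 48.9 in PE−/− males, and 652 ± 740 and 64.3 ± 21.5 CPM in females. Its adjusted p was 0.0506 in males, 0.125 in females and 0.00661 over both sexes (log2 fold change −4.34 ± 0.66). Cga, the common α subunit shared with thyrotropes, averaged 8474 ± 3353 and 5221 ± 2588 CPM in males and 6412 ± 1160 and 4971 ± 2441 in females and was not called (log2 fold change −0.55 ± 0.33 over both sexes, adjusted p = 0.551). Tshb, the thyrotrope hormone, averaged 254 and 195 CPM in males and 221 and 276 in females, and was not called in either sex (adjusted p = 0.987 and 0.656).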

How the data were processed

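Whole pituitary glands were profiled by paired-end RNA-seq, with 15 libraries in 4 groups. Per the study's methods, reads were trimmed by the authors (cutadapt), aligned to mm10 (STAR) and assigned to genes (featureCounts). The deposited table holds estimated counts as whole numbers, not normalized. Row names carry assembled loci, although no assembly is described, and the values 5, 9 and 13 were 1.52, 1.16 and 1.08 times as frequent as their neighbours, so about 4 counts stood for 1 fragment. Such estimates may shift with the assembled transcript, and whether strand was used is not stated. Totals ran from 12982794 to 30238443 counts, and floors cover counting error only.

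In R 4.3.3, edgeR 4.0.16 was used with filterByExpr (minimum count 10, minimum total 15), TMM factors and the two-sided quasi-likelihood F test, with Benjamini-Hochberg adjustment over all genes tested and a threshold of 0.05. The standard error was taken from the F statistic, so the intervals include the spread between libraries. Comparisons were PE−/− against PE+/− per sex and adjusted for sex, the interaction, and the sexes per genotype. DESeq2 1.42.0, other scalings, filters, a likelihood ratio test and leaving out libraries were alternatives. Replicates of a group differed beyond counting noise in all 21 pairs (chi-square per degree of freedom 71.4 to 231). Scripts were tested on simulated data with less spread between libraries than these. That test covers the code and not what could be detected here. Positions and exon lengths are from GENCODE M21.

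The factors, the lists and the rule for named genes were chosen with earlier results of these data known. The rule named the 8 factors, Nr5a1, Gnrhr and Lhb, each listed partner, other factor or target past the threshold, otherwise at most 4 per list by adjusted p, and the 2 genes with the highest Pearson r to each factor. Ldb1, Ldb2 and Tshb were named after their values were seen. A planned test of each factor relative to Gnrhr is not reported, since the fall of Gnrhr itself fixes its outcome. Isolated gonadotropes were not analysed here.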

Additional observations from a re-analysis of the deposited data

Results flagged for a closer look

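In groups of 4 libraries, a library was marked when its gap to the nearest other, as a share of the range of its group, exceeded Dixon's 95% critical value. For continuous values chance marks about 1 in 20 groups. Here 3 of 24 were marked, which cannot be set against that rate because of the zeros in Hesx1. Lhx3 in PE−/− males was at 294 CPM in replicate 4, compared with 248 to 252 CPM in the other 3, a gap of 0.921 of the range. Hesx1 was marked in PE+/− males at 0.711 CPM in replicate 4 and in PE−/− males at 0.306 CPM in replicate 2, in each case against 0 in the other 3. With the other 3 libraries at 0, any value above 0 is marked. These Hesx1 values stand for 11 and 8 counts and lie under the floor of 12.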

How the results depend on the processing

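Of 787 refits of single factors, 742 kept their direction and side of the threshold, 3 passed that had not passed before and 42 changed sign. Those that passed were Lhx4 and Isl1 over both sexes with DESeq2 (2 factors called in place of 0) and Isl1 over both sexes without PE−/− male replicate 4. With library totals, Pou1f1 in males came to 0.053 and Lhx3 between the sexes in PE+/− to 0.020. Pitx1 over both sexes came to −0.0090 with DESeq2 size factors and with DESeq2 and to −0.0014 with counts divided by 4. The numbers of genes called over the whole table moved as well. As shares, DESeq2 called 2 of 7 tested factors over both sexes and 4% of all genes. In males (23) there were 206 with DESeq2, 138 with the likelihood ratio test and 37 in a fit of all 15 libraries. In females (189) there were 1431, 710 and 714, and 123 with no low-count filter. Over both sexes (226) there were 768 and 419, and for the interaction (31) 392 and 202, with DESeq2 and the likelihood ratio test. Between the sexes in PE+/− (115) there were 900, 422, 421 in a fit of all libraries and 66 with no filter, and in PE−/− (9) 41 with DESeq2 and 33 with the likelihood ratio test. The cause was not tested.

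Whether the replicate numbers pair samples is not stated. Deviations of same-numbered libraries correlated between −0.143 and 0.169, which does not settle it. With the replicate block the counts were 0 in males, 1 in females, 88 over both sexes, 11 for the interaction and 0 between the sexes in either genotype. Foxl2 over both sexes came to −0.038 and Isl1 between the sexes in PE−/− to −0.13 with the block, and no factor was called. The block ended the calls of Nr5a1, Gnrhr and Lhb in males (adjusted p = 0.225, 0.0844 and 0.179) and in females (0.0666, 0.207 and 0.186), of Neurod1 in females (0.229) and of Zfpm2 over both sexes (0.0599).

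Leaving out each library gave 11 to 35 genes in males, 29 to 244 in females, 75 to 267 over both sexes, 7 to 71 for the interaction, 34 to 113 between the sexes in PE+/− and 7 to 27 in PE−/−. The called factors were 0 to 1 over both sexes and 0 elsewhere. In males Pitx1 ran from −0.44 to 0.31, Pou1f1 from −0.16 to 0.11 and Gata2 from −0.65 to 0.061. Over both sexes Pitx1 ran from −0.11 to 0.29, Gata2 from −0.036 to 0.40 and Foxl2 from −0.10 to 0.18. For the interaction Pitx1 ran from −0.033 to 0.78. Between the sexes Pitx1 ran from −0.63 to 0.21 in PE+/−, and in PE−/− Pitx1 ran from −0.034 to 0.38, Pou1f1 from −0.036 to 0.22, Gata2 from −0.25 to 0.12 and Isl1 from −0.13 to 0.17. Depth limits Lhx4 and Hesx1, which were mostly under the floor, and a change in Foxl2, at 34 to 198 counts, was read with wide intervals.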
